A study of Mus musculus with 18 samples.

Results

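The regions described here are the distal open regions that both WT refed livers shared. They were chosen by the measured positions of ATAC-seq summits: a summit of the first WT refed liver was kept when it lay more than 1000 bp from every curated RefSeq transcript start of mm10 and had a summit of the second WT refed liver within 200 bp. Of the 5027 summits of the first liver, 2838 were distal and 604 of these met both conditions. Among all summits of that liver, 30.4% had a summit of the second within 200 bp, a share that the choice itself uses and that is given only as a description. The 604 regions were 21.3% of the distal summits, and near transcript starts 924 of 2189 summits (42.2%) were matched in the same way.

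ATAC-seq uses a transposase that inserts sequencing adapters into accessible DNA, and a summit is the position where the reads of a called peak are densest. Open chromatin away from transcript starts is known to hold enhancers, which bind transcription factors and act on genes at a distance, in liver through factors such as HNF4A, FOXA and C/EBP proteins. Short reads from repeated DNA are a known difficulty of the assay, because copies that differ little cannot be told apart and copies missing from the reference pile up on those that are present. Mitochondrial DNA is not packed in nucleosomes and is cut readily by the transposase, and nuclear copies of it can receive its reads.

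The study compared WT C57bl/6j mice that were fasted overnight, WT littermates refed a high-carbohydrate, fat-free diet after the fast, and refed JMJD1C-LKO mice, in which floxed Jmjd1c is deleted by Cre under the albumin promoter, that is in hepatocytes. The methods give an age of 12 weeks unless stated otherwise, and the labels give 6 h of refeeding for every sample, the fasted ones included, whereas the methods state a longer time. ATAC-seq was made from 2 livers per group and H3K9me2 ChIP-seq from 2 WT fasted and 2 WT refed livers, while RNA-seq used 2 libraries of pooled RNA from WT refed and 2 from JMJD1C-LKO refed liver. JMJD1C is an enzyme known to remove methyl groups from lysine 9 of histone H3.

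The length of the deposited summit lists differed widely, from 825 and 1450 summits in the JMJD1C-LKO livers to 5220 and 7632 in the fasted livers, with 5027 and 3119 in the refed livers. The lists hold no read depth, and the study states a single approximate depth rather than one per library, so scores, which are the −log10 of the MACS2 q-value, were used only as ranks within a liver. In the H3K9me2 data the first refed library stood apart, with 1297 summits against 7690 to 13456 in the other 3. In the RNA-seq data Jmjd1c was present at 21.99 and 22.78 CPM (counts scaled to a common library size) in the WT libraries and at 20.04 and 20.48 in the libraries labelled JMJD1C-LKO. This difference did not pass the test (log2 fold change -0.14 ± 0.08 (SE), adjusted p = 0.23, edgeR quasi-likelihood test), and a count over the whole gene may not register the loss of part of it, so these samples are called "labelled JMJD1C-LKO" throughout, and every direction below rests on the labels. Hepatocyte genes were abundant in all 4 libraries, with 30 such genes, of which 29 were tested, summing to between 185300 and 204900 CPM.

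Most of the 604 regions lay in repeated DNA, though fewer than among the other distal summits. In a window of 100 bp on either side of the summit, 343 regions (56.8%, 95% Wilson confidence interval 52.8–60.7) had more than 50% soft-masked bases, the repeats marked in the reference. Of the 2234 distal summits without a match 76.9% (75.2–78.6) did so, and of the 924 matched summits near starts 1.3%. The central 31 bases occurred more than once in the chromosomes for 447 of the 604 regions (74.0%, 70.4–77.3) and for 82.0% (80.3–83.5) of the unmatched distal summits. The regions were placed in 6 classes, each region in the first that applied. A match of at least 25 bases to the mitochondrial genome was found for 22, at least 2 adjoining units of the telomere repeat TTAGGG for 111, another tandem repeat with a unit of up to 6 bp for 139, and other soft-masked sequence for 115. The remaining regions are called unmasked, although up to 50% of their window may be soft-masked. Of them, 88 had central bases present in several copies and 129 (21.4%, 18.3–24.8) had central bases found once. The latter class held 16.4% (14.9–18.0) of the unmatched distal summits. The intervals cover counting error only, and regions of the same repeat family are not independent.

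The following sequences show the strongest region of 4 of the repeated classes, to make plain what kinds of repeat the regions consist of. Telomere repeats, 12 of the strongest 25 regions, hold the unit named above and are not printed here. They are from the plus strand of GRCm38 (mm10), each named by the nearest gene. Capitals mark the bases shared with the mitochondrial genome for Eea1, runs of at least 3 copies of the repeat unit for Tcp10c, and runs of at least 25 bases shared with another of the 604 regions for 4933422A05Rik and Chl1.
Eea1, chr10:96077662-96077782: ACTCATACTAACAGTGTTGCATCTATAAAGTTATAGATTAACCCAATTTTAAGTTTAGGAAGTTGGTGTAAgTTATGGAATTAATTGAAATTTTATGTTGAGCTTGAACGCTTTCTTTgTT
Tcp10c, chr17:13306008-13306128: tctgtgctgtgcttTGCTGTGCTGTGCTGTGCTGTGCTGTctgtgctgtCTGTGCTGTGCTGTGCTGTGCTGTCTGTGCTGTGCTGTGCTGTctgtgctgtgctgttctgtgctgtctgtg
4933422A05Rik, chr9:35305337-35305457: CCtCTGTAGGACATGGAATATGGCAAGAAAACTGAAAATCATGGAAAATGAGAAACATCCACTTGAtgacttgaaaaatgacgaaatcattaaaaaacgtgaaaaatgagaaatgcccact
Chl1, chr6:103649168-103649288: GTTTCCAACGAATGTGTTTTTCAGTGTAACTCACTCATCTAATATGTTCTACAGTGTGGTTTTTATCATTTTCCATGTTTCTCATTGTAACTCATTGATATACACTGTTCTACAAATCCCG

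In the Eea1 window 119 of the 121 bases belonged to runs shared with the mitochondrial genome. The 4933422A05Rik sequence has the letters of the mouse major satellite, the repeat that makes up pericentromeric heterochromatin. Its family, joined by shared runs of 25 bases on either strand, had 26 of the 604 regions on 8 chromosomes, 12 of them among the 100 strongest. By the same measure 28 families of at least 2 regions were found and 197 regions shared such a run with no other.

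The regions at the top of the score order belonged to these repeats. The 10 strongest summits of the first refed liver were all among the 604, as were 49 of the strongest 50 and 96 of the strongest 100, against 263 of the strongest 500. The median rank of the 604 was 688, beside 3574 for the 2234 distal summits without a match and 1111 for the 924 matched summits near transcript starts. The match in the second refed liver is part of the choice, so these rank contrasts are a description and not a test. Among the 10 strongest, the regions ranked 2 to 5 had a mitochondrial match and lay nearest to Eea1, 1700019M22Rik, 4933402J10Rik and Ccnh. Ranks 7, 9 and 10 were telomere repeats nearest to Gm45871, Mrgprd and Tmem196, ranks 1 and 6 soft-masked repeats nearest to 4933422A05Rik and Rab10os, and rank 8 the multi-copy region in an intron of Chl1, which encodes a neural cell adhesion molecule.

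**Figure D1:**
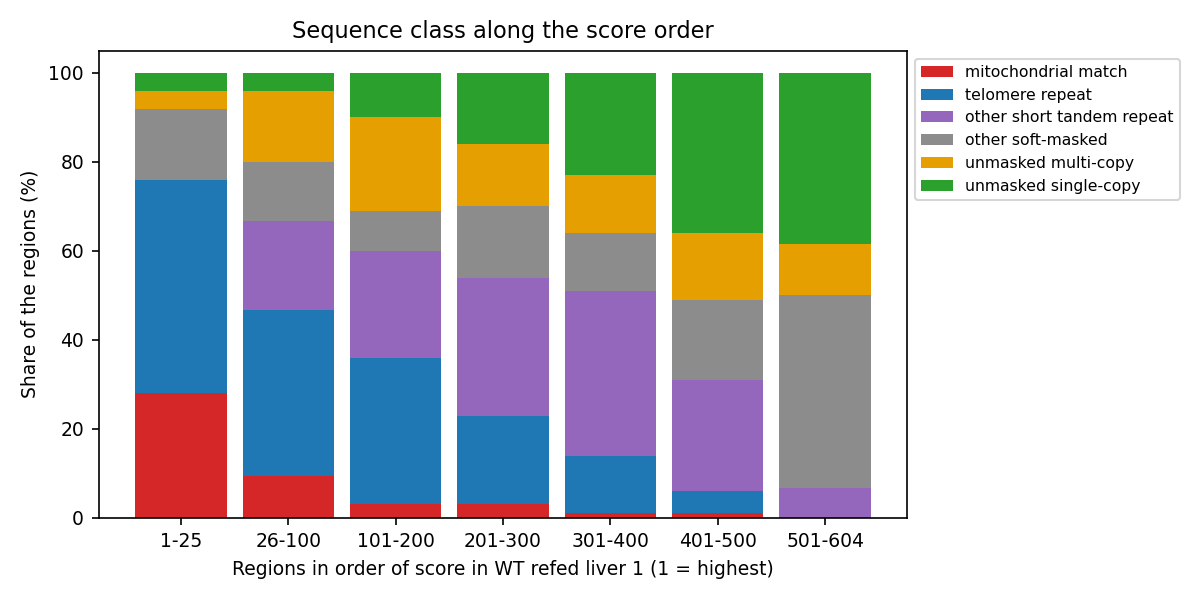
Share (%) of the 6 sequence classes in successive groups of the 604 regions, ordered from highest to lowest score in WT refed liver 1. Telomere repeats and mitochondrial matches make up 48% and 28% of the strongest 25 and none of the regions from 501 to 604, where unmasked single-copy regions make up 38.5%.

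Median ranks by class were 41.5 for mitochondrial matches, 155 for telomere repeats, 533 for unmasked multi-copy regions, 653 for other short tandem repeats, 1548 for unmasked single-copy regions and 1847 for other soft-masked regions. The ranks in the 2 refed livers ran together over the 604 regions, with a Spearman correlation of 0.83 as a description over regions that share both livers. Within classes the correlation was 0.99 for mitochondrial matches, 0.96 for telomere repeats, 0.75 for other short tandem repeats, 0.84 for other soft-masked, 0.56 for multi-copy and 0.55 for single-copy regions, so the pooled value also holds the different rank levels of the classes. The median distance between the paired summits was 4 bp for telomere repeats and 46 bp for single-copy regions.

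**Figure D2:**
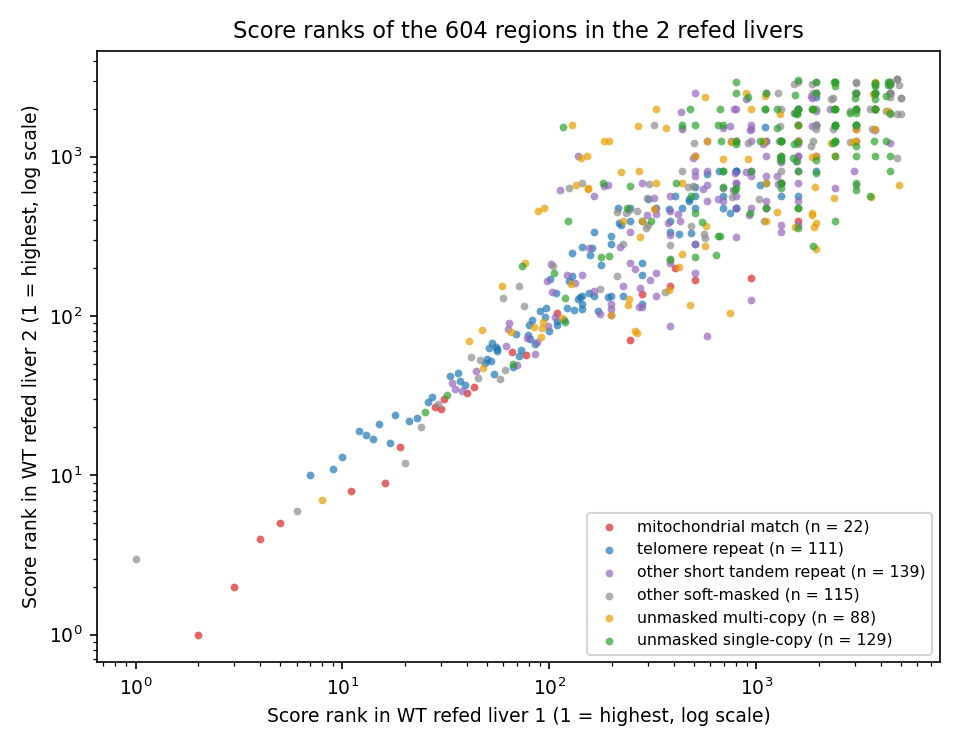
Score rank of each of the 604 regions in WT refed liver 1 (horizontal, log scale) and the nearest summit in WT refed liver 2 (vertical, log scale), coloured by sequence class. Points of the strongest regions lie close to the diagonal, and the spread grows for the single-copy regions, whose median rank in liver 1 is 1548.

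Most of the regions were far from transcript starts, while 195 lay in introns and 8 in exons of a curated RefSeq transcript. That transcript need not be of the nearest gene. Their median distance to the nearest start was 47441 bp, less than the 71231 bp of the unmatched distal summits, with the middle of the range running from 16905 bp at the lower quartile to 140582 bp at the upper. Only 24 lay within 2500 bp of a start, and 204 were more than 100 kb away. Of the 604, 401 (66.4%, 62.5–70.0) were intergenic. Of the 2234 distal summits without a match, 68.8% were intergenic (66.8–70.7). Relative to the nearest start, 289 of the 604 lay upstream and 315 downstream.

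At the edge of the distance rule, the closest region was in the Rbpj locus at 1001 bp, followed by Prr12 at 1015 bp and Jund at 1029 bp. The matched summits just left out lay 947 bp from a start of Larp1b and 941 bp from Kat6b. At the edge of the matching rule, the widest accepted gaps were 193 bp near Snx29 and 191 bp near Nr4a1, and the narrowest rejected was 203 bp near Slitrk5.

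**Figure D3:**
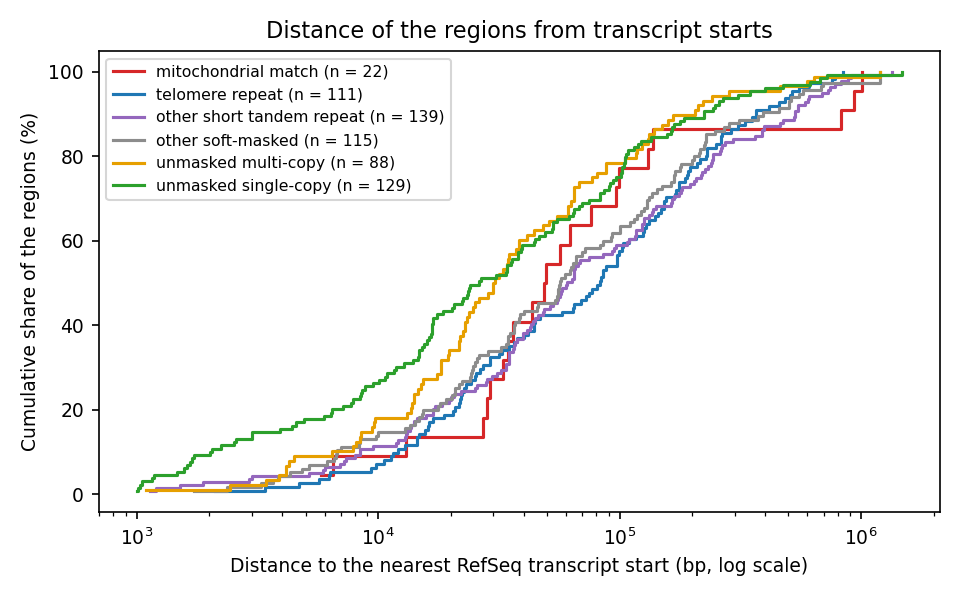
Cumulative share (%) of the regions of each sequence class against their distance to the nearest RefSeq transcript start (bp, log scale). Over its lower part the single-copy curve lies to the left of the others, with a median of 26045 bp, the multi-copy regions have a median of 30228 bp, and the telomere repeats have a median of 82731 bp.

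The telomere repeats were spread over all 21 chromosomes, and 18 chromosomes had one within 250 kb of an end. Telomeres are made of TTAGGG units. Of the 111 telomere-repeat regions, 19 lay within 1000 bp of a run of at least 10 kb of undetermined bases in the reference, at most 298 bp from it, with ranks between 7 and 798. The share of regions with 2 telomere units was 18.4% (15.5–21.7), compared with 0.627% of the distal summits without a match, 0% of the matched summits near starts, and 0.00957% of windows of the same length sampled across the genome.

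Of the 139 other short tandem repeats, 114 had a unit of 4 bp. The regions nearest to Got1 and Insig1 belonged to this class, with units of 4 and 6 bp, and their sequences are shown because both genes are on the metabolic lists given below. Got1 encodes cytosolic aspartate aminotransferase, and Insig1 a protein that retains SREBP precursors in the endoplasmic reticulum. Capitals mark runs of at least 3 copies of the unit, which cover all 121 bases of both windows on the plus strand of GRCm38.
Got1, chr19:43541450-43541570: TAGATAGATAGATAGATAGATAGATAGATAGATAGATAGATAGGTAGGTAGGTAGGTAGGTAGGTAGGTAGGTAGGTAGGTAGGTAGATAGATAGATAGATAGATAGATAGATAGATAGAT
Insig1, chr5:28099264-28099384: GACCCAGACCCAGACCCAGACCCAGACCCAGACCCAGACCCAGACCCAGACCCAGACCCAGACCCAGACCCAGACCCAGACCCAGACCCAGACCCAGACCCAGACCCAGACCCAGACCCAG

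Regions also came in arrays. Joining regions within 10 kb left 554 loci, 21 of which held 2 or more regions and 71 regions in all. The longest run was 13 soft-masked regions between 3000446 and 3035086 of chromosome 9, nearest to Mir101c, the first of them 446 bp from a run of undetermined bases. On chromosome 6, 14 multi-copy regions lay in a pair of groups between 47659574 and 47772238, with Rn4.5s and Rny3 as nearest genes, both of which encode small non-coding RNAs. The central 31 bases of these 14 regions occurred 16 times each, and their ranks ran from 115 to 1937. All 14 had an H3K9me2 summit within 1000 bp in the first refed ChIP library.

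The 129 unmasked single-copy regions included some with further transcript starts near them. Within 1000 bp of a GENCODE M21 start lay 36 of the 129 (27.9%, 20.9–36.2), and 20 lay within 1000 bp of a predicted RefSeq start, neither of which the selection used. Among all 604 regions the numbers were 81 (13.4%) and 28 (4.64%). At least 8 CpG dinucleotides in the window were present in 49 of the 129 (38.0%) and in 91 of the 604 (15.1%), beside 89.5% of the matched summits near starts. Unmethylated CpG-rich DNA is a known feature of promoters.

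The single-copy regions with the highest scores were nearest to Pak3, Dpy19l1, Galnt18 and Brox, at ranks 25, 32, 67 and 74, and all 4 were present in all 4 other livers. Single-copy is a statement on the central 31 bases only. The region upstream of Pak3, which encodes a p21-activated kinase, belongs by shared runs of 25 bases to the family of the Chl1 region above, and 9 of the 129 shared such a run with another region. Its sequence is shown with the shared bases in capitals.
Pak3, chrX:143482958-143483158: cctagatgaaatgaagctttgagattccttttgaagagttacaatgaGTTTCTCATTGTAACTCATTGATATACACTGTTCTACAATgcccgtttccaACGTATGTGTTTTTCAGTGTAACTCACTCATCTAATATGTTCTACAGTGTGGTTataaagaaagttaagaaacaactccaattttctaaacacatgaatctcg

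The E-box CACGTG is the site bound by USF and ChREBP factors in lipogenic promoters. It was found in 12 of the 604 windows (1.99%, 1.14–3.44), beside 1.95% of genome windows of the same length and 0.985% of the distal summits without a match. All 12 were among the 129 single-copy regions, so that the share there was 9.30% (5.40–15.6), beside 5.29% of RefSeq promoters. Single-copy sequence made up 21.4% of the 604 regions and 16.4% of the unmatched distal summits. The E-box share within that class was not counted for the unmatched summits. The 3 strongest were nearest to Axin2, Pcmtd1 (rank 675) and Mir30d (rank 1099), and the fourth lay 3933 bp upstream of Per1, a repressor of the circadian clock. None of the 12 had a lipogenic gene as its nearest gene. The other motifs searched on both strands were the FOXA site TGTTTAC in 3 of the 604 regions (0.497%, genome 2.99%), the HNF4 site CAAAGTCCA in 0 (genome 0.257%), where the limit of 3 counts allows a share of up to 0.497%, the C/EBP site TTGCNNAA in 45 (7.45%, genome 9.46%) and the AP-1 site TGANTCA in 20 (3.31%, genome 5.97%). In the 129 single-copy regions, the C/EBP site was present in 17 (13.2%, 8.39–20.1) and the AP-1 site in 11 (8.53%, 4.83–14.6), intervals that hold the genome shares, and the FOXA and HNF4 sites in 2 and 0. Motifs of different kinds may overlap, and a match is no evidence of binding.

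Sequences are shown for E-box regions, with CACGTG in capitals, and for single-copy regions near Fos and Fgg, genes of lists given below, with CpG dinucleotides in capitals. All are from the plus strand of GRCm38.
Axin2, chr11:109011779-109011899: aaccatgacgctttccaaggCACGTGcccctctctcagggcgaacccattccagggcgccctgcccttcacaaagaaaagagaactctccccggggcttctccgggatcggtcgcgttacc
Pcmtd1, chr1:7397796-7397916: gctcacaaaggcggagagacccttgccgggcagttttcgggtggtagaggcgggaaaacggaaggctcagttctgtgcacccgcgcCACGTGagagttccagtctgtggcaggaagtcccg
Per1, chr11:69094916-69095116: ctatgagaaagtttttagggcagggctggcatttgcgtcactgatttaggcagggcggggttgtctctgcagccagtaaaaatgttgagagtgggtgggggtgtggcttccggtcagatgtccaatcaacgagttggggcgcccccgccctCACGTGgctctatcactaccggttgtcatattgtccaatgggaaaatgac
Fos, chr12:85455299-85455499: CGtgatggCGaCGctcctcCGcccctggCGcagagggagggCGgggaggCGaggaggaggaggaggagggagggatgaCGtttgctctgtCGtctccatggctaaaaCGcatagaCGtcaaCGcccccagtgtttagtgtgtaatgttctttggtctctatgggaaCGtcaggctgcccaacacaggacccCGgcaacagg
Fgg, chr3:83003245-83003445: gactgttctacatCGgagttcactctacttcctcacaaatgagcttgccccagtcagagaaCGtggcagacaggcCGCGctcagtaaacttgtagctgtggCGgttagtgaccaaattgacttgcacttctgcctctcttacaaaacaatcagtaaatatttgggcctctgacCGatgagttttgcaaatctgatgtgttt

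The Fos window holds 14 CpG dinucleotides and overlaps an enhancer feature of the RefSeq annotation. It lay 18491 bp upstream of Fos, an immediate early transcription factor gene, and ranked 691 in the first refed liver, 813 in the second, 3889 and 1216 in the fasted livers, with no summit within 200 bp in either liver labelled JMJD1C-LKO.

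Presence in the other livers is a measure the selection did not use. Of the 604 regions, 404 (66.9%, 63.0–70.5) had a summit within 200 bp in the first fasted liver and 450 (74.5%, 70.9–77.8) in the second, beside 37.7% and 31.5% of all summits of the first refed liver. In the livers labelled JMJD1C-LKO the numbers were 310 (51.3%, 47.3–55.3) and 272 (45.0%, 41.1–49.0), beside 20.7% and 8.71%. The distal summits without a match were present in 12.4% and 15.5% of cases in the fasted livers and in 4.52% and 2.78% in the livers labelled JMJD1C-LKO. The 924 matched summits near starts, which share with the 604 the match in both refed livers, were present in 70.7% (67.7–73.5) and 58.2% (55.0–61.4) of cases for the fasted pair, and in 42.6% (39.5–45.9) and 7.79% (6.23–9.70) for the livers labelled JMJD1C-LKO. Windows of 200 bp on either side of the summits cover between 0.0121% and 0.112% of the chromosomes in these 4 livers.

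The fasted livers had a mean share of 70.7% ± 5.39 (SD, n = 2) and the livers labelled JMJD1C-LKO 48.2% ± 4.45 (SD, n = 2), without overlap. An exact two-sided permutation test of 2 livers against 2 gave p = 0.33, the smallest it can give. The lists of the livers labelled JMJD1C-LKO were also the shortest. With the 825 strongest summits of each liver, the shares were 47.0% and 57.5% for the fasted pair, and 46.5% and 45.0% for the livers labelled JMJD1C-LKO, with a difference of means of 6.46 percentage points in place of 22.5.

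The same regions recurred. In all 4 other livers, 224 of the 604 (37.1%, 33.3–41.0) were present, and 88 (14.6%) were in none of them and so were found in the refed WT livers alone. Another 57 were in both fasted livers and in neither liver labelled JMJD1C-LKO, and 2 were the reverse. The fasted lists held 5220 and 7632 summits, against 1450 and 825 in the livers labelled JMJD1C-LKO. These joint counts were not matched for list length and not taken over all summits of the first refed liver, so no loss was read from them. The regions accounted for 33.0% of the 825 summits of the second liver labelled JMJD1C-LKO and for 5.90% of the 7632 summits of the second fasted liver. Regions whose matching summit was among the 100 strongest of a liver numbered 94 and 97 for the fasted pair, and 97 and 86 for the livers labelled JMJD1C-LKO.

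Presence differed widely by sequence class. Telomere repeats were present in 110 and 109 of 111 cases in the fasted livers and in 96 and 109 in the livers labelled JMJD1C-LKO, and 95 of them were in all 4. Mitochondrial matches were in both fasted livers in 22 of 22 cases and in the livers labelled JMJD1C-LKO in 20 and 18. For the 139 other short tandem repeats, presence was 49.6% (41.5–57.8) in fasted liver 1 and 88.5% (82.1–92.8) in fasted liver 2. It was 29.5% and 26.6% for the pair labelled JMJD1C-LKO. Because 111 of these 139 regions belonged to a single family by shared runs of 25 bases, they are not independent. Their intervals therefore cannot serve to compare livers. Unmasked single-copy regions were in 84 (65.1%, 56.6–72.8) and 62 (48.1%, 39.6–56.6) of 129 in the fasted livers, but in 43 (33.3%, 25.8–41.8) and 16 (12.4%, 7.78–19.2) in the livers labelled JMJD1C-LKO. Of the 129, 11 were in all 4 and 28 in none.

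With the 825 strongest summits of each liver, the single-copy shares were 25.6% and 19.4% for the fasted pair, and 20.2% and 12.4% for the livers labelled JMJD1C-LKO, and the groups overlapped (exact permutation test, two-sided p = 0.667, n = 2 per group). The lower share in the livers labelled JMJD1C-LKO and the shortness of their lists cannot be told apart.

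**Figure D4:**
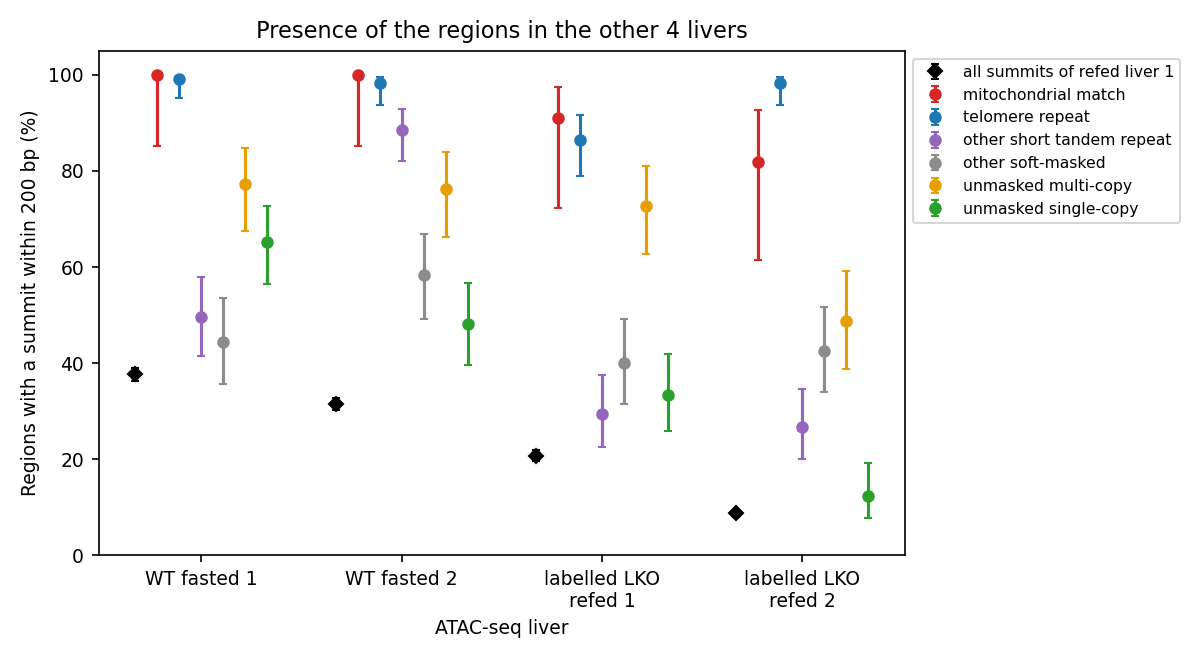
Share (%) of the regions of each sequence class, and of all summits of WT refed liver 1 (black diamonds), with a summit within 200 bp in each of the other 4 ATAC-seq livers; bars are 95% Wilson intervals. Telomere repeats stay at or above 86.5% in every liver, while single-copy regions range from 12.4% to 65.1%.

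H3K9me2, a mark of repressed chromatin and a substrate of JMJD1C, was found at fewer of the regions than of summits near transcript starts in 3 of the 4 ChIP libraries, and at more of them than of the other distal summits in all 4. A summit of this mark lay within 1000 bp of 20 (3.31%) and 67 (11.1%) of the 604 regions in the fasted libraries and of 28 (4.64%) in the second refed library, beside 29.9%, 44.1% and 36% of all summits of the first refed ATAC-seq liver. In the first refed library the number was 159 of the 604 (26.3%, 23.0–30.0), beside 4.14% of all summits. The 2234 distal summits without a match had such a summit in 0.851% (0.545–1.32) and 3.0% (2.37–3.79) of cases in the fasted libraries, and in 1.57% (1.13–2.17) and 1.3% (0.905–1.86) in the first and second refed library. That library's summits lay within 1000 bp of 0.649% of the matched summits near starts, where the other 3 libraries had 69.3%, 96.2% and 83.5%.

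Most regions marked in the first refed ChIP library were in repeated sequence, but not all repeats were marked. A summit of that library was at 74 of 111 telomere repeats, 14 of 22 mitochondrial matches, 26 of 115 other soft-masked and 26 of 88 multi-copy regions. It was at 3 of 129 single-copy regions. In the second refed library only 1 of 111 telomere repeats and 0 of 22 mitochondrial matches had such a summit. The numbers were 0 and 0 in the first fasted library. The calls at these repeats thus rest on a single library. Among short tandem repeats, all 11 regions of the Tcp10c family were marked. A family of 117 regions, 111 of them short tandem, had 2 marked. In the second fasted library the marked regions were instead 39 single-copy and 25 multi-copy regions of the 67, with 0 telomere repeats and 0 mitochondrial matches. Since the 2 refed libraries differed this much, no change with feeding was read from the regions.

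The 604 regions had 524 nearest genes, of which 286 were in the RNA-seq table and 263 passed the filter on low counts. Their median level in WT refed liver, in CPM per kb of transcript, was 1.95 over the 284 genes with counts, compared with 2.91 over 15470 genes and 6.33 over the 864 genes nearest to the matched summits near starts. For the single-copy regions it was 2.15 over 85 genes.

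Between libraries labelled JMJD1C-LKO and WT, 38 of the 263 tested nearest genes were higher and 25 lower (edgeR quasi-likelihood test, Benjamini-Hochberg adjusted p under 0.05), which is 14.4% and 9.51%. Over all 14162 genes tested the shares were 14.6% higher and 13.3% lower. Without TMM normalization 35 of the nearest genes were higher and 32 lower, and no difference from the background was read from these shares. Their median log2 fold change was 0.04, beside 0.01 for all genes. For the single-copy regions, 12 of 81 nearest genes were higher and 5 lower, with a median of 0.06. Fits without either WT library called fewer nearest genes in both directions. Shares over all genes are not given for these fits or for the fit without TMM.

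Of the 15588 genes in the RNA-seq table, 286 were nearest to a region, and the lists of liver metabolism and identity held 10 of the nearest genes. Of 30 hepatocyte identity genes 3 (Cps1, Fgg and Foxa1) were nearest to a region, of 13 gluconeogenic genes 2 (Got1 and Ppargc1a), of 15 immediate early genes 2 (Fos and Jund), of 13 bile acid genes 1 (Abcb11), of 19 clock genes 1 (Per1) and of 23 cholesterol synthesis genes 1 (Insig1). None of 22 lipogenic, 20 fatty acid oxidation, 15 glucose use or 14 H3K9 methylation genes was the nearest gene of a region. The same holds for 9 Kupffer and macrophage, 8 liver endothelial, 8 lymphocyte and 8 stellate and cholangiocyte markers.

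Of the gluconeogenic list, 12 of 13 tested genes were higher in the libraries labelled JMJD1C-LKO and 0 lower. Over all genes tested 14.6% were higher and 13.3% lower. The other metabolic lists moved both ways. Of 22 lipogenic genes 7 were higher and 5 lower, of 23 cholesterol synthesis genes 8 and 6. The counts were 6 and 2 of 13 bile acid, 3 and 4 of 20 fatty acid oxidation and 2 and 2 of 15 glucose use genes. By RT-qPCR the study reported no difference between WT and JMJD1C-LKO in how gluconeogenic genes responded to feeding. Got1 stood at 76.2 and 72.0 CPM in the WT and 365 and 581 CPM in the labelled JMJD1C-LKO libraries, without overlap (log2 fold change 2.67 ± 0.18, SE, edgeR adjusted p = 4.0e-05). Its region, the 4-bp repeat shown above, was 16905 bp upstream, had rank 798 and was present in both fasted livers and in neither liver labelled JMJD1C-LKO. Ppargc1a, which encodes the coactivator PGC-1alpha, stood at 8.82 and 8.91 CPM in the WT and 25.5 and 33.1 CPM in the other libraries (log2 fold change 1.72 ± 0.13, edgeR adjusted p = 5.5e-05). It had 3 regions, between 162646 and 227383 bp downstream of its start and at ranks 3750, 4443 and 4770. The first of these was single-copy and present in the first fasted liver alone. The other 2 were soft-masked and lay in 1 locus of 172 bp, with the same rank, 1848, in the second refed liver. Of these, the region at rank 4443 was present in the second fasted liver alone, and the other in none.

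Among hepatocyte identity genes, Cps1, the first enzyme of the urea cycle, was at 2019 and 2175 CPM in the WT and 3390 and 3149 CPM in the labelled JMJD1C-LKO libraries (log2 fold change 0.64 ± 0.09, edgeR adjusted p = 0.0012). The region 40340 bp upstream of it was soft-masked and present in the second fasted liver. Fgg, the fibrinogen gamma chain gene, did not pass the test at 2001 and 2105 against 2672 and 2236 CPM (edgeR adjusted p = 0.091), and neither did the pioneer factor gene Foxa1 at 13.99 and 13.55 against 12.04 and 9.417 CPM (edgeR adjusted p = 0.065). The single-copy regions of Fgg, 4379 bp upstream, and of Foxa1, 101681 bp downstream, had no summit in any of the other 4 livers.

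Per1 was at 39.5 and 36.7 CPM in the WT and 45.4 and 55.5 CPM in the labelled JMJD1C-LKO libraries (log2 fold change 0.40 ± 0.10, edgeR adjusted p = 0.018). Insig1 was at 49.8 and 48.9 against 62.0 and 56.6 CPM (0.27 ± 0.08, edgeR adjusted p = 0.036, but adjusted p over 0.05 with DESeq2). Abcb11, the bile salt export pump gene, was at 397 and 413 against 397 and 360 CPM (edgeR adjusted p = 0.43), and the region 12981 bp upstream, at rank 19, was a mitochondrial match present in all 4 other livers. Fos, at 1.39 and 1.04 against 0.729 and 2.32 CPM, and Jund, at 63.7 and 62.0 against 60.8 and 72.5 CPM, did not pass the test. The Jund region, 1029 bp downstream of the start and in an exon, was in both fasted livers and in neither liver labelled JMJD1C-LKO.

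Of the nearest genes within 100 kb of the 239 regions with at most 50% masked bases and no mitochondrial match, 22 of which were telomere repeats, those with the smallest p that rose in the libraries labelled JMJD1C-LKO were Trp53inp1, Fam107a, Filip1l, Kynu and Frmd4a. Trp53inp1, a p53-induced stress gene, was at 20.2 and 17.2 against 57.0 and 108 CPM (log2 fold change 2.14 ± 0.24, edgeR adjusted p = 3.7e-04), with a single-copy region 8596 bp upstream at rank 4443 that recurred in the first fasted liver alone. Fam107a had the widest fold change of the 5, from 0.270 and 0.268 to 2.55 and 6.02 CPM (3.99 ± 0.46, edgeR adjusted p = 4.1e-04). Its multi-copy region, 22979 bp downstream at rank 88, was present in all 4 other livers. Kynu, which encodes kynureninase of tryptophan breakdown, rose from 114 and 110 to 155 and 146 CPM (0.43 ± 0.08), and its region was in none of the other livers.

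Those that fell were Spaca6, Serbp1, Arhgap21, Tnks1bp1 and Dnajc3. Spaca6, a sperm acrosome gene, fell from 2.32 and 1.94 to 0.850 and 0.780 CPM (log2 fold change -1.38 ± 0.27, edgeR adjusted p = 0.0051). Its single-copy region lay 7164 bp downstream of the start, in an exon of a transcript that need not be of Spaca6. Dnajc3, which encodes a co-chaperone of the endoplasmic reticulum, fell from 243 and 275 to 208 and 186 CPM (-0.40 ± 0.09, edgeR adjusted p = 0.013). Its region, at rank 787, lay 69653 bp downstream of the start, in an intron of a transcript that need not be of Dnajc3. The region was present in both fasted livers and in neither labelled JMJD1C-LKO. The other 3 had log2 fold changes between -0.47 and -0.43. Of the genes near the 10 strongest regions, the endosomal gene Eea1 fell from 70.4 and 63.6 to 44.8 and 38.2 CPM (-0.69 ± 0.10, edgeR adjusted p = 0.0012) and the cyclin H gene Ccnh from 17.1 and 17.9 to 13.5 and 11.3 CPM (-0.50 ± 0.11, edgeR adjusted p = 0.010). Both regions were mitochondrial matches. Without 1 of the WT libraries the calls of Arhgap21, Ccnh, Dnajc3, Frmd4a, Insig1, Kynu, Ly6c2, Per1, Serbp1, Spaca6 and Tnks1bp1 no longer passed the threshold, and those of Insig1 and Per1 were also lost without 1 of the libraries labelled JMJD1C-LKO.

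**Figure D5:**
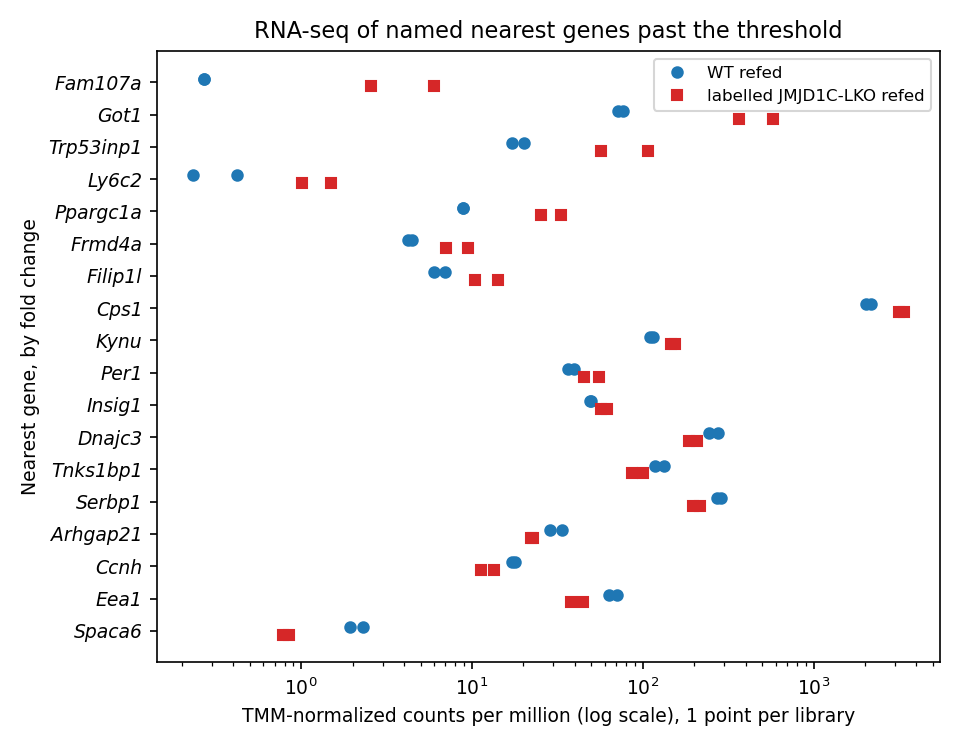
TMM-normalized CPM (log scale) of the 18 named nearest genes with an adjusted p under 0.05, in the 2 WT refed libraries (circles) and the 2 libraries labelled JMJD1C-LKO (squares). The genes run from Fam107a at the top (log2 fold change 3.99) to Spaca6 at the bottom (-1.38) and were drawn because they passed the test.

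Hepatocyte genes moved both ways, with 3 of 29 tested higher and 7 lower in the libraries labelled JMJD1C-LKO. All 9 Kupffer and macrophage markers were higher, summing to 265 and 274 CPM in the WT and 519 and 744 CPM in the other libraries. So were 6 of 8 endothelial, 3 of 8 lymphocyte and 1 of 8 stellate and cholangiocyte markers. Over all genes tested 14.6% were higher and 13.3% lower, and the stellate and cholangiocyte share was near the first. None of these lists of other cells had a marker that was lower. The monocyte gene Ly6c2, nearest to a multi-copy region at rank 41, rose with them, from 0.232 and 0.422 to 1.012 and 1.488 CPM (log2 fold change 1.93 ± 0.41, edgeR adjusted p = 0.0083). In bulk tissue, more cells of a type and more RNA per cell cannot be told apart, and the part of these cells in the changes of nearest genes was not tested.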

How the data were processed

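ATAC-seq, H3K9me2 ChIP-seq and RNA-seq files of mouse liver were used. For ATAC-seq the authors aligned reads with BWA to mm10 and called peaks per liver with MACS2 (version 2.1.1 per the labels) at a q-value cutoff. The deposited summit lists give a position and a score, the −log10 of the q-value. The RNA-seq table that the authors deposited holds estimated counts of each RefSeq transcript, made in Partek Flow. Another deposited table, with fold changes and p-values of the authors' own comparison, was not used. ChIP-seq summits were called against the input of the same liver.

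Summits were compared with curated (NM and NR) RefSeq transcript starts of GRCm38.p6 and between lists within 200 bp, in Python 3.11.15 with numpy 2.4.6, pandas 2.3.3 and scipy 1.17.1. Soft-masked bases, 31-base copy number, motifs and shared 25-base runs were taken from the reference in windows of 201 bp. The 6 sequence classes were defined after the sequences had been seen. Estimated counts (51265128 to 54400509 per library) were summed per gene, rounded and tested with edgeR 4.0.16 (TMM, filterByExpr, quasi-likelihood F test, two-sided, Benjamini-Hochberg over 14162 genes). The script was tested on simulated data. Of 24994 transcripts, 24682 were matched by identifier. DESeq2 1.42.0 served as an alternative.

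The members and lists were chosen with earlier results of these data known. Regions and genes were named by rule: the 10 strongest, the 10 strongest with at most 50% masked bases and no mitochondrial match, those nearest to a listed gene, up to 5 nearest genes within 100 kb in each direction by p, and those at the edges of the rule. Others (Axin2, Pcmtd1, Mir30d, Tcp10c, the arrays and Mir101c) were named after their values were seen. Nothing says whether the RNA pools shared animals, so p-values measure the spread between libraries. The numbers of the RNA replicates were not taken as pairs, since the correlation of their deviations was -0.00453.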

Additional observations from a re-analysis of the deposited data

How the results depend on the processing

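The number of regions stayed within 1.5 times of 604 (447 to 665) under the other windows, distances, annotations and a score minimum, and was 157 when the central 31 bases had to be unique, an alternative chosen after seeing the data, as were GENCODE starts and the restriction to single-copy regions. Shares present in fasted liver 1 and 2 and in livers labelled JMJD1C-LKO 1 and 2 moved as follows. With a window of 100 bp they were 58.9%, 65.4%, 46.2% and 41.2%. With the strongest 825 summits the first 3 were 47.0%, 57.5% and 46.5%. With the 239 regions of at most 50% masked bases and no mitochondrial match they were 72.8%, 63.2%, 51.0% and 33.5%. With a score of at least 5 in both refed livers they were 78.7%, 88.8%, 65.1% and 58.2%. With single-copy regions the last 3 were 48.1%, 33.3% and 12.4%. H3K9me2 within 200 bp was at 0.497% and 4.64% in the fasted and 0.497% in the second refed library. Soft-masked shares moved little. The same 239 regions had 19 nearest genes higher and 10 lower by construction (fewer genes), and a median level of 2.15. Leaving out 1 RNA library gave 16 to 51 higher and 8 to 33 lower nearest genes. Across the fits without 1 library the log2 fold change ran from -0.73 to 0.93 for Fos, from -0.32 to 0.54 for Galnt18 and from -0.046 to 0.20 for Jund. It was below 0 for all 3 without labelled JMJD1C-LKO replicate 2, and for Galnt18 also without WT replicate 1 (-0.047). With the replicate number as a block, 43 nearest genes were higher and 26 lower, and Foxa1 passed the threshold (-0.37), as it did without TMM (-0.40) and without labelled JMJD1C-LKO replicate 1 (-0.55). Fos (0.93) passed without that replicate, Fgg (0.38) and Dpy19l1 (-0.28) without replicate 2, and Dpy19l1 also without TMM (-0.26). The samples share only a number. The causes were not tested. Lists without read depth limit what an absent summit shows.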

Other observations

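Telomere repeats were found at distal summits of every ATAC-seq liver. Their share of the distal summits was 5.36% (of 2520) and 2.09% (of 6467) in fasted liver, 4.4% (of 2838) and 6.52% (of 1794) in WT refed liver, and 18.0% (of 584) and 19.3% (of 638) in refed liver labelled JMJD1C-LKO. Unmasked single-copy sequence took 49.8% and 4.07% of the distal summits of the fasted pair, 17.4% and 14.7% of the WT refed pair, and 21.9% and 7.52% of the pair labelled JMJD1C-LKO. The second fasted liver, the longest list, had 83.6% of its distal summits in other soft-masked sequence, against 27.8% in the first. One of the 28 families, with 3 multi-copy regions on chromosome 4, was strongest near Mup13, a major urinary protein gene. It had matches for 3 and 2 regions in fasted liver and for 0 and 0 in liver labelled JMJD1C-LKO. Its ranks in the first refed liver were 1930 to 2941, while the lists of the livers labelled JMJD1C-LKO held 1450 and 825 summits. The absence was not tested.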
